A study of Mus musculus with 6 samples.

Results

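The 8 genes described here, *S100b*, *Ncam1*, *L1cam*, *Foxd3*, *Gfap*, *Cdh19*, *Cdh2* and *Tfap2a*, are genes of the immature and non-myelinating stages of the Schwann cell (SC). They were chosen by symbol, and all 8 were found among the 24062 genes of the deposited count tables. Gene expression had been measured by bulk RNA-seq of mouse dorsal root ganglion (DRG)/tumor tissue in 6 libraries, 3 per genotype, and the comparison asks how the genes differ when *Runx1* and *Runx3* are floxed as well as *Nf1*. The first group is *Nf1*fl/fl;*DhhCre*, and its tissue label reads dorsal root ganglion. The second group, called double knockout here, carries floxed *Runx1* and *Runx3* with *DhhCre*, and its tissue label reads neurofibroma tumor. Its genotype label leaves out floxed *Nf1*, whereas the extraction protocol and the methods of the study place *Nf1*fl/fl in both groups. Both are on a C57BL/6-I129 background, and the age of these mice is not given in the labels. *DhhCre* expresses Cre recombinase from the desert hedgehog promoter, and the study uses it to recombine SCs and their precursors. Cells of the same tissue without Cre in their lineage, such as neurons and macrophages, keep intact alleles. Because the tissue label changes with the genotype, tissue and genotype cannot be told apart. The study itself does not describe this split. Its methods name DRG/tumors for both genotypes, and its results name tumors for *Nf1*fl/fl;*DhhCre* and DRG/tumors for the double knockout.

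Schwann cells arise from the neural crest through SC precursors and immature SCs, which then either wrap a single large axon in myelin or, as non-myelinating (Remak) cells, hold bundles of small axons without myelin. Cells that do not myelinate keep much of the immature adhesion and intermediate filament repertoire, including NCAM, L1 and GFAP, whereas S100 proteins stay in both mature forms. In neurofibromas, benign nerve sheath tumors caused by loss of the Ras regulator *Nf1*, SCs lose their ordered contact with axons. The 8 genes fall into 4 groups by role: a calcium-binding protein and an intermediate filament (*S100b* and *Gfap*), adhesion molecules of the immunoglobulin family (*Ncam1* and *L1cam*), cadherins (*Cdh19* and *Cdh2*), and transcription factors of the neural crest (*Foxd3* and *Tfap2a*).

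Library totals were 12439296 to 16682194 counts, at which 3 counts equal 0.179 to 0.247 CPM. CPM, the unit of levels below, are counts scaled to a common library total, here after TMM scaling, which corrects the totals for composition. Of the floxed genes, *Runx3* counts were lower in every library labelled double knockout, and *Runx1* and *Nf1* counts overlapped. *Runx1* was at 131, 141 and 172 CPM in *Nf1*fl/fl;*DhhCre* and at 84.0, 78.9 and 185 CPM in those labelled double knockout, so that the third of the latter was the highest of all 6. *Runx3* was at 19.9, 15.1 and 29.9 CPM against 13.5, 10.3 and 12.1 CPM, and *Nf1* at 302 ± 30.8 against 290 ± 44.5 CPM (SD, n = 3). None of these differences passed the limma-voom test (adjusted p = 0.370 for *Runx1* and 0.104 for *Runx3*), and counts over a whole gene in mixed tissue need not show the loss of a floxed exon. The labels also place the library labelled double knockout replicate 3 alone on another sequencing run, although the sample numbers in the labels and in the deposited data differ for 4 libraries. The *Runx1* counts therefore neither bear out nor contradict the label of this library. Its *Runx1* level and labelled run stand apart from those of the other double knockout libraries. The fold change of each of the 8 genes is therefore given with its range when single libraries were left out.

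Of the 8 genes, *S100b* and *Cdh2* were higher and *Gfap* was lower in the double knockout, each by more than 2-fold. *Ncam1*, *Foxd3* and *Tfap2a* had lower values in all 3 double knockout libraries but did not pass the threshold, and *L1cam* and *Cdh19* overlapped between the genotypes. Thus 3 of 8 passed an adjusted p of 0.05, where 19.3% of the 15652 genes tested did. By direction, 2 of 8 were higher, against 11.1% of all genes, and 1 of 8 was lower, against 8.22%. The same 3 were differentially expressed genes (DEGs, adjusted p below 0.05 and over 2-fold), where 8.03% of all genes were DEGs on the higher side and 5.36% on the lower. Values of the genotypes did not overlap for 6 of the 8 genes, 2 higher and 4 lower, against 42.3% of all genes. With 8 genes these shares are coarse, and nothing particular to the 8 genes is read from the counts. Their median log2 fold change was -0.36, and that of all genes tested was 0.02.

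**Figure D1:**
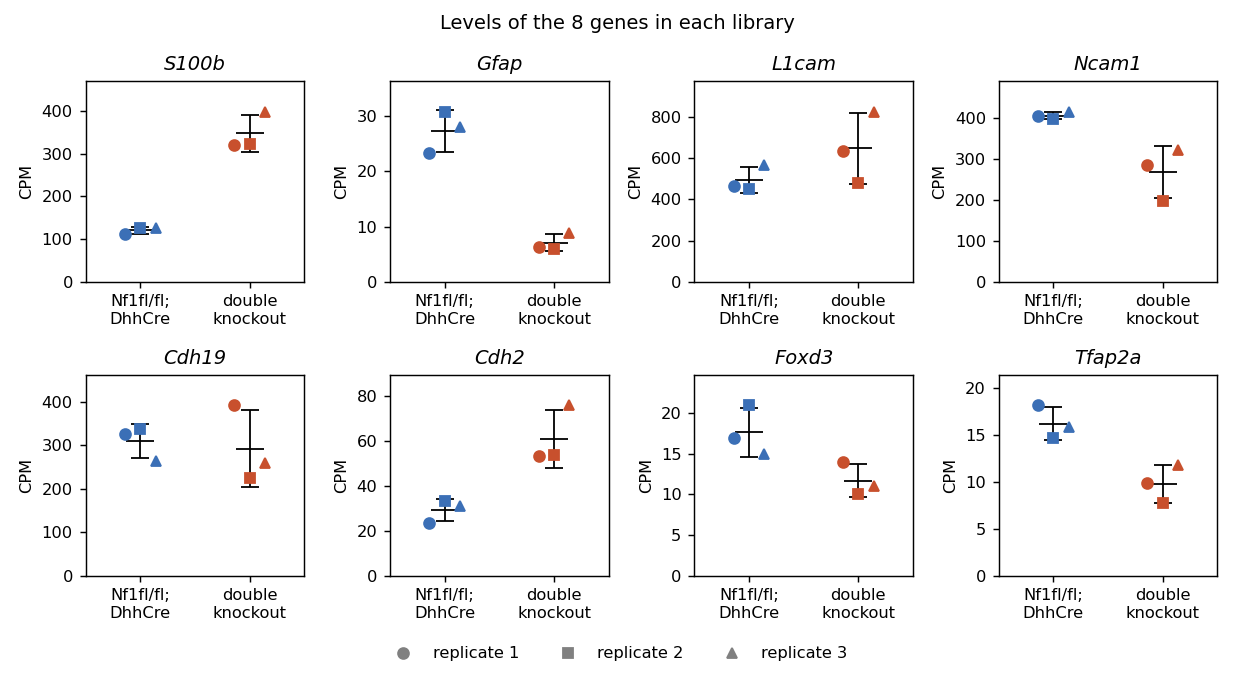
Each panel plots the level of 1 gene in CPM (vertical axis, from 0, with a scale of its own) in the 3 Nf1fl/fl;DhhCre libraries (blue) and the 3 double knockout libraries (orange); marker shape gives the replicate number, horizontal bars the mean and whiskers the SD. *S100b* sits at 111 to 126 CPM against 320 to 398 CPM and *Gfap* at 23.2 to 30.8 against 6.00 to 8.91 CPM, whereas the points of *L1cam* and *Cdh19* overlap.

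*S100b* and *Gfap* are the classical glial antigens of the set. *S100b* encodes the calcium-binding protein by which SCs are commonly stained, and *Gfap* the intermediate filament protein of astrocytes that also marks immature, non-myelinating and injured SCs. Because these 2 genes moved in opposite directions by the largest amounts among the 8, the 250 bases before their RefSeq transcript starts are shown (RefSeq, GRCm38.p6, 5′ to 3′ on the strand of the gene). The *S100b* sequence is chr10:76253586-76253835 on the plus strand and the *Gfap* sequence chr11:102897201-102897450 on the minus strand.
S100b: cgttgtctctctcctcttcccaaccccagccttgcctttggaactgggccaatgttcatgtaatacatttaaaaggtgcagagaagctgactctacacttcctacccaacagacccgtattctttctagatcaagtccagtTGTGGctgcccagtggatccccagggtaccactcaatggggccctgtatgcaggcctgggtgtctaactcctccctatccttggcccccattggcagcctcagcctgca
Gfap: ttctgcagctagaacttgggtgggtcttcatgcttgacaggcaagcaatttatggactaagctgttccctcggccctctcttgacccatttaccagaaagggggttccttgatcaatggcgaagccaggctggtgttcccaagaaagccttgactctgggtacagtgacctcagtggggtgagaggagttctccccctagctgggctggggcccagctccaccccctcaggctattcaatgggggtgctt
The letters TGTGGT and TGCGGT, the core that RUNX proteins bind, were searched on both strands and occur in neither sequence. The shorter core TGTGG, by which the study names RUNX sites, was added after the data had been seen and is in capitals; it occurs once in the *S100b* sequence, 109 bases before the start, and not in that of *Gfap*. RefSeq windows were matched for 5 of the 8 genes (*S100b*, *Gfap*, *L1cam*, *Foxd3* and *Tfap2a*, 7 windows because 2 genes have a pair of starts), and 0 of the 7 windows held the 6-letter cores, against 6107 or 18.6% of all 32851 windows of the same length. TGTGG, which is part of TGTGGT, was held by 3 of the 7, that of *S100b* and both overlapping windows of *L1cam* at a single site, against 16205 or 49.3% of all windows. The count therefore depends on the letters chosen. No RNA value bears on binding at these windows, and neither a match nor its absence says anything on the factor.

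*S100b* (chr10:76253853-76261159, plus strand; positions of the 8 genes are those of GENCODE M21 on GRCm38) was at 111, 126 and 125 CPM in *Nf1*fl/fl;*DhhCre* and at 320, 322 and 398 CPM in the double knockout libraries. The lowest double knockout library lay far above the highest of the other genotype. The mean rose from 121 ± 8.53 to 347 ± 44.2 CPM (SD, n = 3 each), which is 2.87-fold. The log2 fold change was 1.52 with a standard error of 0.13 (95% interval 1.20 to 1.83, limma-voom with Benjamini-Hochberg adjustment over all genes tested, adjusted p = 0.00598). It ranged from 1.42 to 1.61 when each library was left out in turn and passed the threshold in 6 of 6 such fits. *S100b* ranked 17 of the 15652 genes tested by p-value. The tissue is mixed, and a larger share of cells with *S100b* and more *S100b* RNA per cell cannot be told apart here or for any gene below.

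*Gfap* (chr11:102887336-102900912, minus strand) went the other way. It was at 23.2, 30.8 and 28.0 CPM in *Nf1*fl/fl;*DhhCre*, from 335, 517 and 437 counts, and at 6.38, 6.00 and 8.91 CPM in the double knockout libraries, from 80, 73 and 135 counts. Every double knockout library was below every library of the other genotype. The mean fell from 27.4 ± 3.83 to 7.10 ± 1.58 CPM (SD, n = 3 each), 3.85-fold lower, with a log2 fold change of -1.94, a standard error of 0.24 and a 95% interval of -2.50 to -1.38 (limma-voom, adjusted p = 0.00835). All 6 fits without 1 library kept the call, with values of -2.13 to -1.80.

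The opposite movement of these glial antigens is visible within single libraries, where scaling between libraries cancels. *S100b* had 4.77, 4.08 and 4.48 counts for each *Gfap* count in *Nf1*fl/fl;*DhhCre* and 50.3, 53.7 and 44.6 in the double knockout libraries. The ratio was chosen after the values had been seen, and its exact permutation p of 0.1 (two-sided) is the smallest that 3 against 3 libraries can give. Leaving out the library labelled double knockout replicate 3 could not make the groups overlap, so the ratio gives no check of that library.

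**Figure D2:**
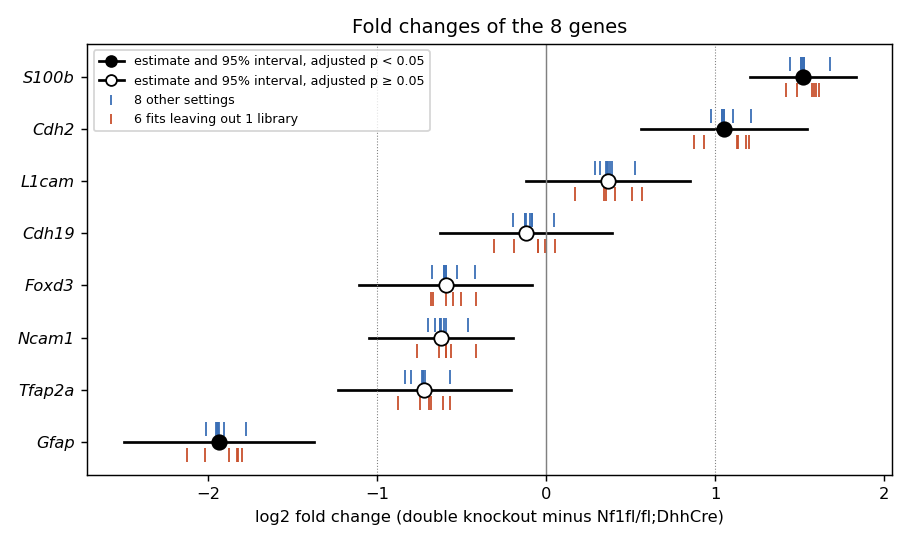
Log2 fold change (horizontal axis, double knockout minus Nf1fl/fl;DhhCre) of each gene with its 95% interval; filled circles passed an adjusted p of 0.05, blue ticks are 8 other settings and orange ticks the 6 fits that leave out 1 library, and dotted lines mark 2-fold. *S100b* (1.52), *Cdh2* (1.05) and *Gfap* (-1.94) are the filled circles, and the ticks of *Cdh19* lie on both sides of 0.

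Among the immunoglobulin adhesion molecules, *Ncam1*, which encodes the neural cell adhesion molecule NCAM1, and *L1cam*, which encodes the axon- and glia-borne adhesion protein L1, had opposite signs, and neither passed the test. *Ncam1* (chr9:49502136-49798925, minus strand) was at 404, 396 and 415 CPM in *Nf1*fl/fl;*DhhCre* and at 285, 198 and 321 CPM in the double knockout libraries. The groups did not overlap, and the 3 *Nf1*fl/fl;*DhhCre* values lay much closer together (405 ± 9.20 CPM) than the 3 double knockout values (268 ± 63.6 CPM; SD, n = 3 each). The log2 fold change was -0.62 with a standard error of 0.18 (95% interval -1.05 to -0.20), just outside the threshold (limma-voom, adjusted p = 0.0522). *Ncam1* passed in 4 of 8 other settings and in 1 of 6 fits without a library, in which the fold change was -0.77 to -0.42. The fit that passed leaves out the library labelled double knockout replicate 3 and gives -0.77 (limma-voom, adjusted p = 0.0380).

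*L1cam* (chrX:73853778-73896105, minus strand) was at 466, 447 and 567 CPM in *Nf1*fl/fl;*DhhCre* and at 635, 480 and 824 CPM in the double knockout libraries. The second double knockout library lay within the range of the other genotype, and the third was the highest of all 6. The means were 494 ± 64.7 and 646 ± 173 CPM (SD, n = 3 each), with a log2 fold change of 0.36 and a 95% interval of -0.12 to 0.85 (limma-voom, adjusted p = 0.253). It was 0.17 to 0.57 without single libraries and passed in none of these fits. Within libraries, *L1cam* had 1.15, 1.13 and 1.37 counts for each *Ncam1* count in *Nf1*fl/fl;*DhhCre* and 2.23, 2.43 and 2.57 in the double knockout, with no overlap (exact permutation p = 0.1, two-sided, the smallest possible; ratio chosen after the values had been seen). An exon of *L1cam* overlaps an exon of *Arhgap4* on the same strand by 100 bases, and an exon of *Ncam1* overlaps an antisense gene by 151 bases, so a small part of either count may be shared.

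*Cdh19* and *Cdh2* encode cadherins, calcium-dependent adhesion proteins that catenins link to actin. *Cdh19* is found mainly in neural crest-derived glia, whereas *Cdh2* encodes N-cadherin, which is present on SC precursors, immature SCs and neurons. *Cdh2* (chr18:16588877-16809246, minus strand) was at 23.7, 33.4 and 30.8 CPM in *Nf1*fl/fl;*DhhCre* and at 53.2, 53.5 and 75.8 CPM in the double knockout. The groups did not overlap, and the library labelled double knockout replicate 3 was the highest. The mean rose from 29.3 ± 5.06 to 60.8 ± 13 CPM (SD, n = 3 each), 2.08-fold, with a log2 fold change of 1.05, a standard error of 0.21 and a 95% interval of 0.56 to 1.54 (limma-voom, adjusted p = 0.0187). *Cdh2* passed in 5 of 6 fits without a library (0.88 to 1.20), and without *Nf1*fl/fl;*DhhCre* replicate 1 its log2 fold change was 0.94 (limma-voom, adjusted p = 0.0604). It was below 2-fold without the library labelled double knockout replicate 3 (0.88) and with library totals as the only scaling (0.97).

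*Cdh19* (chr1:110888326-110977584, minus strand) was at 326, 337 and 264 CPM in *Nf1*fl/fl;*DhhCre* and at 391, 224 and 260 CPM in the double knockout. The double knockout libraries included both the highest and the lowest of the 6 values. The means were 309 ± 39.6 and 292 ± 88.0 CPM (SD, n = 3 each), with a log2 fold change of -0.12 and a 95% interval of -0.63 to 0.39 (limma-voom, adjusted p = 0.739). The sign turned when libraries were scaled to general SC genes (0.046) or when double knockout replicate 2 was left out (0.052), and the range without single libraries was -0.307 to 0.052. For each *Cdh19* count there were 0.0726, 0.0991 and 0.117 *Cdh2* counts in *Nf1*fl/fl;*DhhCre* and 0.136, 0.239 and 0.292 in the double knockout, again without overlap (exact permutation p = 0.1, two-sided, ratio chosen after the values had been seen).

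*Foxd3*, a forkhead repressor of neural crest and SC precursors, and *Tfap2a*, which encodes the transcription factor AP-2α of neural crest and SC precursors, both had lower values in every double knockout library. *Tfap2a* (chr13:40715302-40738376, minus strand) was at 18.1, 14.6 and 15.8 CPM in *Nf1*fl/fl;*DhhCre* and at 9.80, 7.73 and 11.8 CPM in the double knockout. All double knockout values were below all others, with means of 16.2 ± 1.78 and 9.76 ± 2.01 CPM (SD, n = 3 each). The log2 fold change was -0.72 with a 95% interval of -1.24 to -0.21, and it did not pass (limma-voom, adjusted p = 0.0590), nor did it in any of the 6 fits without a library (-0.87 to -0.57). It passed in 3 of 8 other settings. Antisense transcripts overlap up to 269 bases of a *Tfap2a* exon, and none of them is in the count tables.

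*Foxd3* (chr4:99656299-99658622, plus strand) was at 17.0, 21.0 and 15 CPM in *Nf1*fl/fl;*DhhCre* and at 13.9, 10.1 and 11.1 CPM in the double knockout. The groups were apart by a narrow margin, with means of 17.7 ± 3.04 and 11.7 ± 1.99 CPM (SD, n = 3 each). The log2 fold change was -0.60 with a 95% interval of -1.11 to -0.08 (limma-voom, adjusted p = 0.0985), and *Foxd3* passed in none of the 8 other settings and none of the 6 fits without a library (-0.68 to -0.42). The other AP-2 genes were almost silent: none of 4 (*Tfap2b* to *Tfap2e*) passed the filter on low counts. *Tfap2b* had 139 counts (8.92 CPM) in *Nf1*fl/fl;*DhhCre* replicate 3 and at most 1 count in any other library.

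To compare the genes with each other, CPM were divided by exon length in kilobases (union of annotated exons; the annotation behind the counts is not stated, so these levels are approximate). In *Nf1*fl/fl;*DhhCre*, *S100b* led at 81.3 ± 5.75 CPM per kb, followed by *Cdh19* at 72.2 ± 9.26, *L1cam* at 67.2 ± 8.81 and *Ncam1* at 46.7 ± 1.06 CPM per kb (SD, n = 3). *S100b*, *Cdh19* and *L1cam* overlapped with each other between libraries, whereas *Ncam1* lay below all of them in every library. A second tier held *Foxd3* (7.60 ± 1.31), *Gfap* (6.49 ± 0.907), *Cdh2* (3.63 ± 0.627) and *Tfap2a* (3.30 ± 0.363 CPM per kb). *Foxd3* and *Gfap* overlapped, as did *Cdh2* and *Tfap2a*, and the former pair lay above the latter.

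In the double knockout the order changed within each tier, but no gene left its tier. *S100b*, at 234 ± 29.8 CPM per kb, stood above *L1cam* at 88.0 ± 23.5 and *Cdh19* at 68.1 ± 20.6, which overlapped each other, and *Ncam1* followed at 30.9 ± 7.34 CPM per kb (SD, n = 3). *Cdh2* became the first of the lower tier at 7.54 ± 1.61 CPM per kb, with *Foxd3* at 5.04 ± 0.857 below it. *Tfap2a* at 1.99 ± 0.410 and *Gfap* at 1.68 ± 0.375 CPM per kb came last and overlapped.

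Tissue samples can hold different amounts of SC RNA, so each gene was also set against 9 general SC genes (*Sox10*, *Erbb3*, *Dhh*, *Egfl8*, *Sox8*, *Cmtm5*, *Art3*, *Fxyd3* and *Gpr37l1*) in the same library, as log2 CPM minus their mean log2 CPM. Among these 9, none rose and 1 fell (*Sox8*, log2 fold change -1.12, limma-voom adjusted p = 0.0335), with a median of -0.05. None of the 9 passed without *Nf1*fl/fl;*DhhCre* replicate 1 or without any single double knockout library, and 2 passed without *Nf1*fl/fl;*DhhCre* replicate 2, 3 with DESeq2 and 3 with sample quality weights. *Sox10*, the transcription factor that defines the lineage, was at 221 ± 23.5 and 237 ± 31.7 CPM (SD, n = 3 each), so RNA of this lineage was present in both groups.

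Relative to these genes, the double knockout minus *Nf1*fl/fl;*DhhCre* difference on the log2 scale was 1.68 for *S100b*, 1.21 for *Cdh2* and 0.52 for *L1cam*. It was -1.79 for *Gfap*, -0.58 for *Tfap2a* and -0.46 for *Ncam1*. For these 6 genes the libraries of the genotypes did not overlap, which gives an exact permutation p of 0.1 (two-sided), the smallest that 3 against 3 allows, and 0.133 after Benjamini-Hochberg adjustment over the 8 genes. On the same scale 35.7% of all genes tested did not overlap. *L1cam*, which overlapped in CPM, was apart here. *Foxd3* overlapped on this scale (difference -0.43, exact permutation p = 0.2), and *Cdh19* differed by 0.04 (exact permutation p = 1). In the limma-voom fit scaled to the same 9 genes, *S100b*, *Cdh2* and *Gfap* passed and the other 5 genes did not, where 17% of all genes passed. That scaling moved the median of all genes tested from 0.02 to 0.17.

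**Figure D3:**
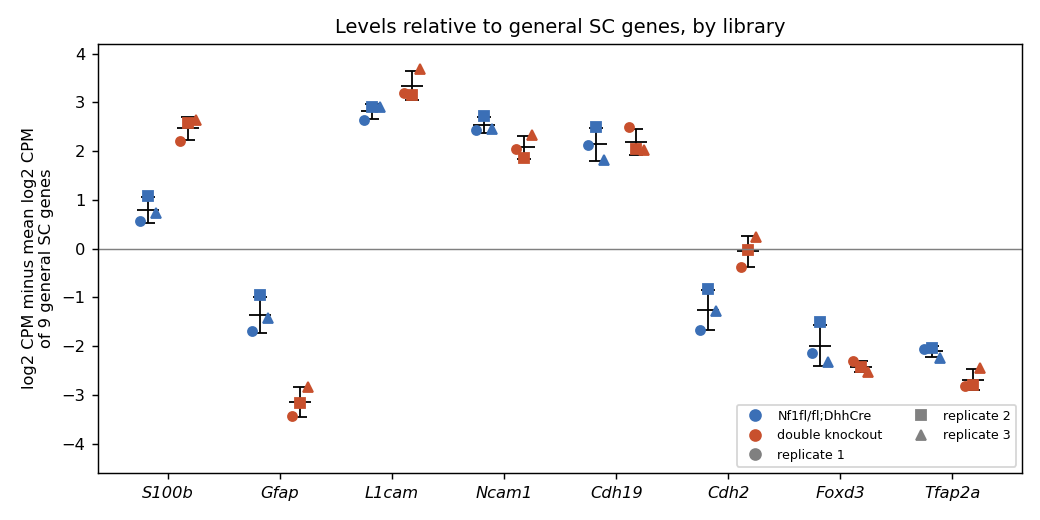
Level of each gene relative to 9 general SC genes in the same library (vertical axis, difference of log2 CPM); blue points are Nf1fl/fl;DhhCre libraries, orange points double knockout libraries, marker shape gives the replicate, and bars and whiskers the mean and SD. *S100b*, *Cdh2* and *L1cam* lie higher in all 3 double knockout libraries and *Gfap*, *Ncam1* and *Tfap2a* lower, with differences of 1.68 for *S100b* and -1.79 for *Gfap*.

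Other genes of the same stages were likewise divided. Of 14 SC precursor and immature SC genes 11 were tested (*Pax3*, *Mia* and *Tfap2b* were too low), and 4 rose, 3 fell and 4 did not pass, with a median log2 fold change of -0.23. *Fabp7*, the brain lipid-binding protein of SC precursors and satellite glia, rose from 14.6 ± 2.84 to 54.3 ± 18.3 CPM (SD, n = 3), a log2 fold change of 1.87 (limma-voom, adjusted p = 0.0113). *Gap43*, a growth cone protein, and *Ngfr*, the p75 neurotrophin receptor, rose by log2 fold changes of 1.61 and 1.36 (limma-voom, adjusted p = 0.0170 and 0.0301). *Fabp7*, *Gap43* and *Ngfr*, but not *Nes*, were highest in the library labelled double knockout replicate 3. The summed sensory neuron markers, given below, were highest there too, and the part of neurons in these values was not tested. On the lower side, *Id2*, an inhibitor of basic helix-loop-helix factors, changed by -1.63, *Itga4*, the α4 integrin subunit, by -1.44, and *Jun*, the transcription factor that opposes myelination, by -0.52 (limma-voom, adjusted p = 0.0371, 0.0220 and 0.0324). *Vim*, the intermediate filament gene most like *Gfap* in its SC expression, was at 649 ± 38.9 and 556 ± 82.1 CPM (log2 fold change -0.23, 95% interval -0.55 to 0.08, limma-voom adjusted p = 0.257).

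All 6 non-myelinating SC genes were tested. *Gap43* and *Ngfr* rose, *Itga1*, the α1 integrin subunit, and *Chl1*, the close homolog of L1, fell by 1.12 and 0.83 on the log2 scale (limma-voom, adjusted p = 0.0108 and 0.0342), and *Scn7a* and *Gfra3* did not pass. The sodium channel gene *Scn7a*, abundant in Remak cells, was at 2316 ± 239 and 1822 ± 370 CPM (log2 fold change -0.36, limma-voom adjusted p = 0.167). *Itga1* was at 168, 145 and 181 CPM in *Nf1*fl/fl;*DhhCre* and at 84.4, 83.7 and 61.3 CPM in the double knockout, without overlap. The counts of both stage lists fell to 0 without *Nf1*fl/fl;*DhhCre* replicate 1, when 383 genes in all (2.39%) passed. Without *Nf1*fl/fl;*DhhCre* replicate 3, 3 immature and 2 non-myelinating genes passed, and 2 of each did without double knockout replicate 2 or 3. Without double knockout replicate 1, 4 immature genes passed. By contrast, *S100b* and *Gfap* passed without it.

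The families of the members gave further context. Of 11 other immunoglobulin adhesion genes, 6 rose and 2 fell (*Chl1* and *Mcam*), with a median of 0.83. These 8 calls became 2 without *Nf1*fl/fl;*DhhCre* replicate 1, and 4 without *Nf1*fl/fl;*DhhCre* replicate 3, double knockout replicate 2 or the library labelled double knockout replicate 3. The axonal and paranodal genes *Cntn1* (2.26), *Cntn2* (1.79) and *Nfasc* (1.69) and the nectin-like gene *Cadm3* (1.48) had the largest log2 fold changes among them, and *Ncam2* did not pass (0.67, limma-voom adjusted p = 0.219). Of 15 cadherin genes tested, 6 rose and none fell, and 1 passed without either replicate 1 or replicate 3 of *Nf1*fl/fl;*DhhCre*, 2 without double knockout replicate 2 and 4 without the library labelled double knockout replicate 3. *Cdh1*, which encodes the E-cadherin of non-compact myelin, rose from 63.3 ± 5.18 to 213 ± 38.4 CPM (SD, n = 3; log2 fold change 1.75, limma-voom adjusted p = 0.00598). The other 5 that rose, *Cdh3* (3.95), *Cdh12* (3.06), *Cdh18* (2.61), *Cdh9* (2.38) and *Cdh8* (2.18), had larger fitted log2 fold changes from low counts, and *Cdh11* did not pass (-0.09). *Cdh3* had 8, 1 and 3 counts in *Nf1*fl/fl;*DhhCre* and 27, 27 and 106 in the double knockout, so the size of its fold change is uncertain. Of 7 catenins, *Ctnna2* (1.99) and *Ctnna3* (1.81) rose, and *Ctnnb1*, which encodes β-catenin, was at 284 ± 18.4 and 285 ± 11.3 CPM; no catenin passed without *Nf1*fl/fl;*DhhCre* replicate 1, and 1 did without *Nf1*fl/fl;*DhhCre* replicate 3 or double knockout replicate 2.

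Among 11 other S100 genes tested, none rose and *S100a4*, which is also expressed by fibroblasts and macrophages, fell by 1.13 on the log2 scale (limma-voom, adjusted p = 0.0219). The number of S100 genes of this list that passed was 0 without *Nf1*fl/fl;*DhhCre* replicate 1 or 3 or without double knockout replicate 2 or 3. It was 2 without *Nf1*fl/fl;*DhhCre* replicate 2, 2 with edgeR, 3 with DESeq2, 2 with library totals as the only scaling and 2 with sample quality weights. Of 8 intermediate filament genes of types III and IV apart from *Gfap*, 5 rose and none fell, with 0 passing without *Nf1*fl/fl;*DhhCre* replicate 1 and 3 without *Nf1*fl/fl;*DhhCre* replicate 3. *Prph* (2.41), *Nefl* (2.40), *Nefm* (2.38) and *Nefh* (2.19), which encode the filaments of axons, led this list, and *Nes*, the filament of progenitors and SCs, rose by 0.47. *Gfap* had the opposite sign to these 5.

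**Figure D4:**
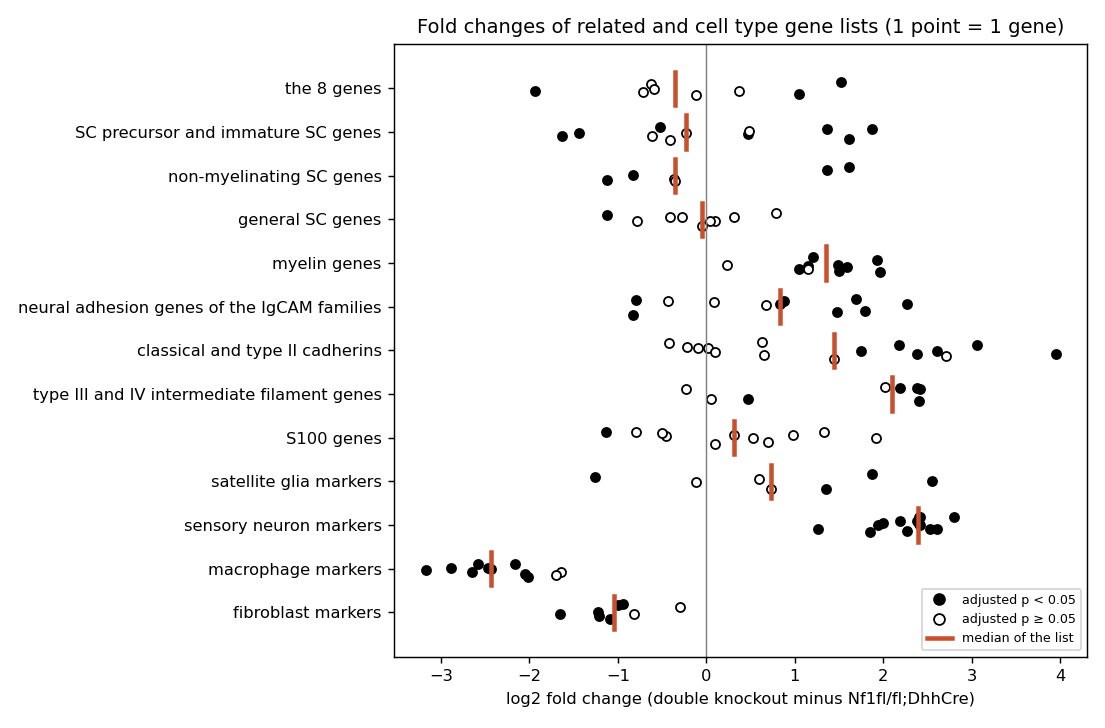
Log2 fold change (horizontal axis, double knockout minus Nf1fl/fl;DhhCre) of every tested gene of each list, 1 point per gene, filled where the adjusted p was below 0.05; the orange bar is the median of the list. The medians are -0.36 for the 8 genes, -0.05 for general SC genes, 1.35 for myelin genes, 2.39 for sensory neuron markers and -2.43 for macrophage markers.

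Myelin genes and markers of other cells in the tissue were compared as well. All 14 sensory neuron markers rose (1 passed without *Nf1*fl/fl;*DhhCre* replicate 1 and 5 without *Nf1*fl/fl;*DhhCre* replicate 3), none was at 0, and their summed level was 1094 to 2258 CPM in *Nf1*fl/fl;*DhhCre* and 5429 to 12100 CPM in the double knockout. *Nefl*, *Nefh* and *Prph* of the filament list are among these 14. The neuron markers moved with *S100b* and *Cdh2*, and with *Fabp7*, *Gap43* and *Ngfr* of the stage lists. Their part in those values was not tested. Of 10 myelin genes 8 rose and none fell (median 1.35, summed level 4480 to 5160 against 9644 to 12930 CPM), with 5 passing without *Nf1*fl/fl;*DhhCre* replicate 1. As *S100b* and *Cdh1* are also expressed by myelinating SCs, the part of the myelin genes in them was not tested. Of 7 satellite glia markers 3 rose (*Kcnj3*, *Fabp7* and *Hmgcs1*) and 1 fell, with 1 passing without *Nf1*fl/fl;*DhhCre* replicate 1. This list holds *Cdh19*, which is one of the 8 genes, and *Fabp7*, which is also in the SC precursor list. *Kcnj10*, the potassium channel gene that satellite glia and astrocytes share, was at 402 ± 36.8 and 173 ± 50.5 CPM (log2 fold change -1.25, limma-voom adjusted p = 0.0138). Its sign was that of *Gfap*.

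On the lower side, 9 of 11 macrophage markers fell and none rose (summed level 1150 to 2604 against 160 to 407 CPM), and 6 of 8 fibroblast markers fell and none rose (9205 to 9868 against 3418 to 5646 CPM). Without *Nf1*fl/fl;*DhhCre* replicate 1, 1 marker of each list passed. Without *Nf1*fl/fl;*DhhCre* replicate 3, double knockout replicate 2 or the library labelled double knockout replicate 3, 3 fibroblast markers passed, and without double knockout replicate 2, 6 macrophage markers did. No marker of either list was at 0. These markers moved with *Gfap*, and their part in its values, or in the values of *Ncam1*, *Tfap2a* and *Foxd3*, which did not pass, was not tested. Muscle markers reached 3006 CPM in *Nf1*fl/fl;*DhhCre* replicate 2 and 13250 CPM in double knockout replicate 2, against 5.71 to 78.0 CPM in the other 4 libraries. Double knockout replicate 2 was also the lowest library of *Ncam1*, which muscle expresses too (198 CPM), and of *Gfap*, *Cdh19*, *Foxd3* and *Tfap2a*. In *Nf1*fl/fl;*DhhCre* replicate 2, *Ncam1* (396 CPM) and *Tfap2a* (14.6 CPM) were the lowest of that genotype. There *Gfap* (30.8 CPM), *Foxd3* (21.0 CPM) and *Cdh19* (337 CPM) were instead the highest of that genotype. The part of muscle in these values was not tested. None of the muscle, adipocyte, keratinocyte, melanocyte, or astrocyte and oligodendrocyte markers passed the threshold. The summed adipocyte markers were at 1315 and 1207 CPM in double knockout replicates 1 and 2, and at 141 CPM in replicate 3. In *Nf1*fl/fl;*DhhCre* they were at 33.6 to 311 CPM, and the part of adipocytes in the values of the 8 genes was not tested. Of 5 chondrocyte markers 2 were tested. *Col2a1* fell (-2.20), a call that was lost without *Nf1*fl/fl;*DhhCre* replicate 1, and *Comp* had the opposite sign and did not pass (0.75). *Acan* and *Col9a1* were too low to test, and *Matn1* had no counts. A single keratinocyte marker passed without *Nf1*fl/fl;*DhhCre* replicate 2, a single adipocyte marker without the library labelled double knockout replicate 3, and a single astrocyte and oligodendrocyte marker without double knockout replicate 1, with edgeR and with DESeq2.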

How the data were processed

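Bulk RNA-seq of mouse DRG/tumors was performed in 3 libraries per genotype. Per the labels and the methods of the study, RNA was amplified with the Ovation RNA-Seq System v2, libraries were made with Nextera XT, and reads were aligned to mm10 with TopHat. The deposited values are raw counts per gene, made by the authors with featureCounts; annotation, strand setting and multi-mapped reads are not stated. Low genes were removed by filterByExpr (a count of at least 10 and a total of at least 15). TMM-scaled counts entered limma-voom (R 4.3.3, limma 3.58.1, edgeR 4.0.16) with genotype alone, with two-sided p-values adjusted by Benjamini-Hochberg over all genes tested. Ratios to SC genes used log2 CPM with a prior count of 0.5. Alternatives were edgeR quasi-likelihood, DESeq2 1.42.0, other scalings, filters and weights, and leaving out each library; the fit was tested on simulated data. The 8 genes and all gene lists were chosen with earlier results of these data known. Beside the 8 genes, up to 4 genes per list with the largest changes among those passing, and near family members (*Ncam2*, *Chl1*, *Cdh11*, *Tfap2b*, *Vim*), were named; other named genes, such as *Jun*, *Cdh1*, *Nes* and *Mcam*, were chosen after their values were seen. Replicate numbers follow accession order and do not pair mice. The labels do not say that libraries came from separate mice in each case. The p-values set differences against the spread between these libraries. Promoter sequences came from RefSeq (GRCm38.p6).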

Additional observations from a re-analysis of the deposited data

How the results depend on the processing

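*S100b* and *Gfap* passed the threshold in all 8 other settings and all 6 fits without a library, and *Cdh2* in 8 and 5. The number of the 8 genes past the threshold was 5 with DESeq2, 5 with library totals as the only scaling and 5 with sample quality weights. *Ncam1* and *Tfap2a* were added in each, while 29.2%, 19.2% and 25% of all genes passed in these settings. The number was 2 without *Nf1*fl/fl;*DhhCre* replicate 1, where 2.39% of all genes passed. It was 4 without the library labelled double knockout replicate 3 (12.7% of all genes) and 3 without any other library (7.45% to 18.9%). The number of DEGs was 2 or 3 throughout. *Cdh19* had no stable sign: its log2 fold change was 0.046 scaled to general SC genes and -0.307 to 0.052 without single libraries, and relative to the general SC genes its difference was -0.084 with immature SC genes added to the reference and -0.12 to 0.22 without single libraries. The cause was not tested.

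The number of all genes past the threshold was 3017, and 4574 with DESeq2. It was 383 without *Nf1*fl/fl;*DhhCre* replicate 1, 1203 without replicate 3, and 1192 without double knockout replicate 2, and many counts of the gene lists moved: with single libraries left out, 39 list counts fell and 5 rose by over 1.5 times, and 76 did neither, and in the other settings 8 did and 152 did not. Without *Nf1*fl/fl;*DhhCre* replicate 1, 1 of the sensory neuron markers and 1 of the macrophage markers passed. Promoter windows with RUNX letters went from 0 to 3 of 7 when TGTGG was searched, an alternative chosen after seeing the data. No paired analysis was possible because the labels give no replicate number that the genotypes share.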
